A study of Medicago truncatula and Hordeum vulgare with 90 samples.

Results

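The genes described here are the 200 Medicago truncatula genes whose root transcripts rose most when nitrate was withheld and stayed near their replete level when phosphate was withheld. They were picked from 50894 gene identifiers by their levels in wild-type roots alone. A level is CPM, the counts of a gene scaled to its library's total, with library sizes adjusted by the TMM method. A gene first needed a mean of at least 1 CPM in any of the 4 wild-type groups, which 22239 identifiers reached. L is the log2 ratio of a group mean to the replete mean, with 0.5 CPM added to both. Genes with L of at least 1 without nitrate and L within 0.58 of 0 without phosphate numbered 1063, and the 200 with the largest L without nitrate were taken. With 1 CPM added in place of 0.5, 156 of the 200 were chosen as well. Since wild-type values chose them, the wild-type responses below are given as a description, with no test.

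RNA was sequenced from whole roots of seedlings grown for 15 days on plates, of the wild-type A17 ecotype and of the nsp1-1 and nsp2-2 mutants in the A17 background (here nsp1 and nsp2). Each genotype was grown with phosphate and nitrate (+P+N), without nitrate (+P-N), without phosphate (-P+N) and without both (-P-N), with 3 libraries in each of these groups. A second set held 12 libraries of A17 hairy roots after 21 days at +P+N, 3 for each of an empty vector (EV), pLjUBI:3xFLAG-MtNSP1 (NSP1ox), pBdEF1a:3xMyc-MtNSP2 (NSP2ox) and pBdEF1a:3xMyc-MtNSP2-miRR (miRR-NSP2ox). Hairy roots are formed after infection with Agrobacterium rhizogenes, so they differ from seedling roots in origin as well as in age and substrate. By the paper's methods their +P+N medium also held less phosphate than the +P+N plates of the seedlings. The transgenes were driven by promoters of other species rather than by those of NSP1 or NSP2. The labels give nothing on whether libraries of one group came from separate plants or cultures, so p-values measure the spread between these libraries.

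Library totals ran from 16194286 to 25030726 counts in seedling roots and from 18251230 to 25919307 in hairy roots. Replicate libraries differed by more than sampling noise in each pair (chi-square per gene 2.04 to 85.9), and none was a copy of another. All 200 genes passed the filter on low counts in seedling roots, among 24630 genes tested. In hairy roots 182 of them passed, among 24004 genes tested, and the other 18 were too low to test. The median level of all tested genes stayed between 11.9 and 12.8 CPM in every library. No table used here pairs these identifiers with gene names, so the genes are given by identifier alone, and neither the levels of NSP1 and NSP2 nor the markers of root tissues could be checked against the labels.

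Nitrate is the main nitrogen source of many plants, and roots deprived of it raise uptake and assimilation capacity and, in legumes, become permissive to nodulation, the housing of nitrogen-fixing rhizobia. Phosphate shortage calls up a separate set of genes and favours arbuscular mycorrhiza, the symbiosis with soil fungi that deliver phosphate. NSP1 and NSP2 (Nodulation Signaling Pathway 1 and 2) are transcription regulators of the GRAS family that are needed for nodulation in M. truncatula and that also take part in mycorrhization and in strigolactone synthesis. The NSP2 transcript is a target of the microRNA miR171h, and the miRR version carries a changed target site that the microRNA no longer recognizes.

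In A17 the 200 genes went from low levels in replete roots to moderate levels without nitrate. Their mean levels ran from 0 to 40.7 CPM at +P+N (median 1.43) and from 1.78 to 239.8 CPM at +P-N (median 9.52). At +P-N 55 of them were still under 5 CPM and 26 were at 50 CPM or more. L at +P-N ran from 1.89 to 4.51 with a median of 2.24. At the lower end of the list, the last 3 members and the first 3 genes left out all had an L of 1.89. At the upper bound on phosphate the nearest members had L of 0.57 and 0.58 at -P+N and the nearest genes left out 0.59 and 0.598. At the lower bound the nearest members had -0.574 and -0.577, and the nearest genes left out had -0.594 and -0.608.

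Medtr4g065107 had the largest L. It was at 0.119, 0.117 and 0.157 CPM in the 3 A17 libraries at +P+N and at 14.6, 13.9 and 13.2 CPM at +P-N. At -P+N it stayed at 0.276, 0.31 and 0.668 CPM. The +P-N libraries thus lay far above both other groups, with a spread between replicates of less than 2 CPM. Medtr1g015890, the fifth of the list, was among the more abundant members and stood at 6, 6.64 and 7.14 CPM at +P+N against 107, 114 and 111 CPM at +P-N.

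In A17 the median level was lower without both nutrients than without nitrate alone. The median over the 200 genes was 1.41 to 1.47 CPM in the A17 libraries at +P+N, 8.32 to 10.5 at +P-N, 1.35 to 1.61 at -P+N and 4.7 to 6.18 at -P-N. These ranges overlap between +P+N and -P+N and are apart for the other regimes. L at -P-N had a median of 1.57 and ran from 0.10 to 4.12. It was at least 1 in 158 genes, within 0.58 of 0 in 11, and above L at +P-N in 26. The rule did not set L at -P-N, but both values share the +P+N libraries. The genes were also chosen for a high level at +P-N, so a lower level at -P-N is partly built in.

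**Figure D1:**
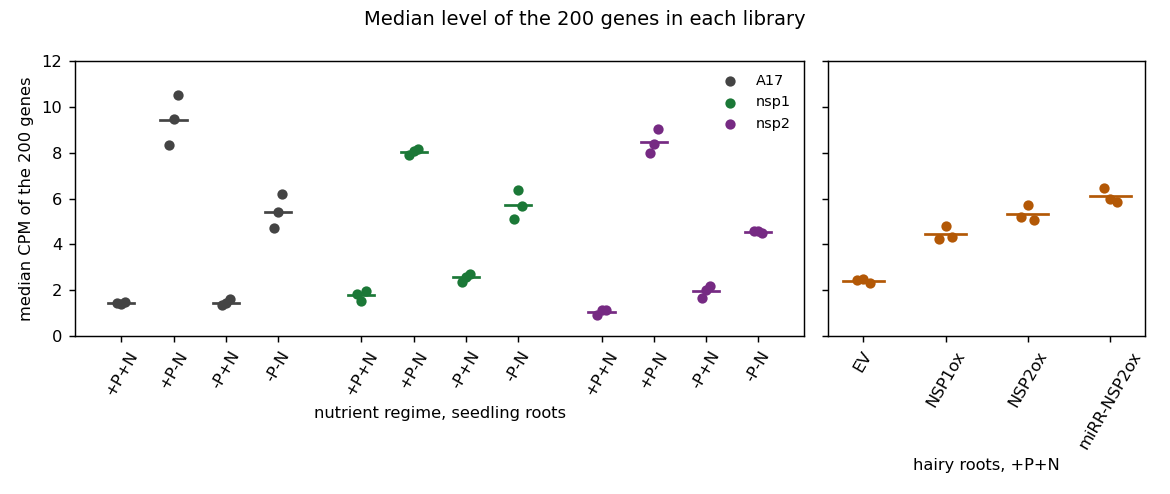
Median level in CPM of the 200 genes in each library, by genotype and nutrient regime in seedling roots (left) and by construct in hairy roots at +P+N (right). Points are single libraries and bars are means of 3 libraries. The +P-N libraries lie between 7.91 and 10.5 CPM in all 3 genotypes, the -P-N libraries between 4.5 and 6.39, and the A17 libraries at +P+N between 1.41 and 1.47.

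The level with both nutrients missing differed widely between members. Medtr1g015890 kept most of its rise, at 80.9, 95.3 and 91.5 CPM in A17 at -P-N. Medtr1g028360 kept none of it. It was at 8.14, 7.13 and 8.69 CPM at +P-N, while the 3 libraries at -P-N held 0, 1 and 3 counts, those at +P+N 1, 0 and 0 counts and those at -P+N no count at all, which allows up to 3 counts over the group. A rise on nitrate removal was seen for this gene only where phosphate was present. The same held in both mutants, with 8.27, 8.36 and 6.64 CPM in nsp1 at +P-N against 0, 0 and 1 counts at -P-N, and 11.3, 15.4 and 13.3 CPM in nsp2 at +P-N against 2, 0 and 0 counts at -P-N.

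**Figure D2:**
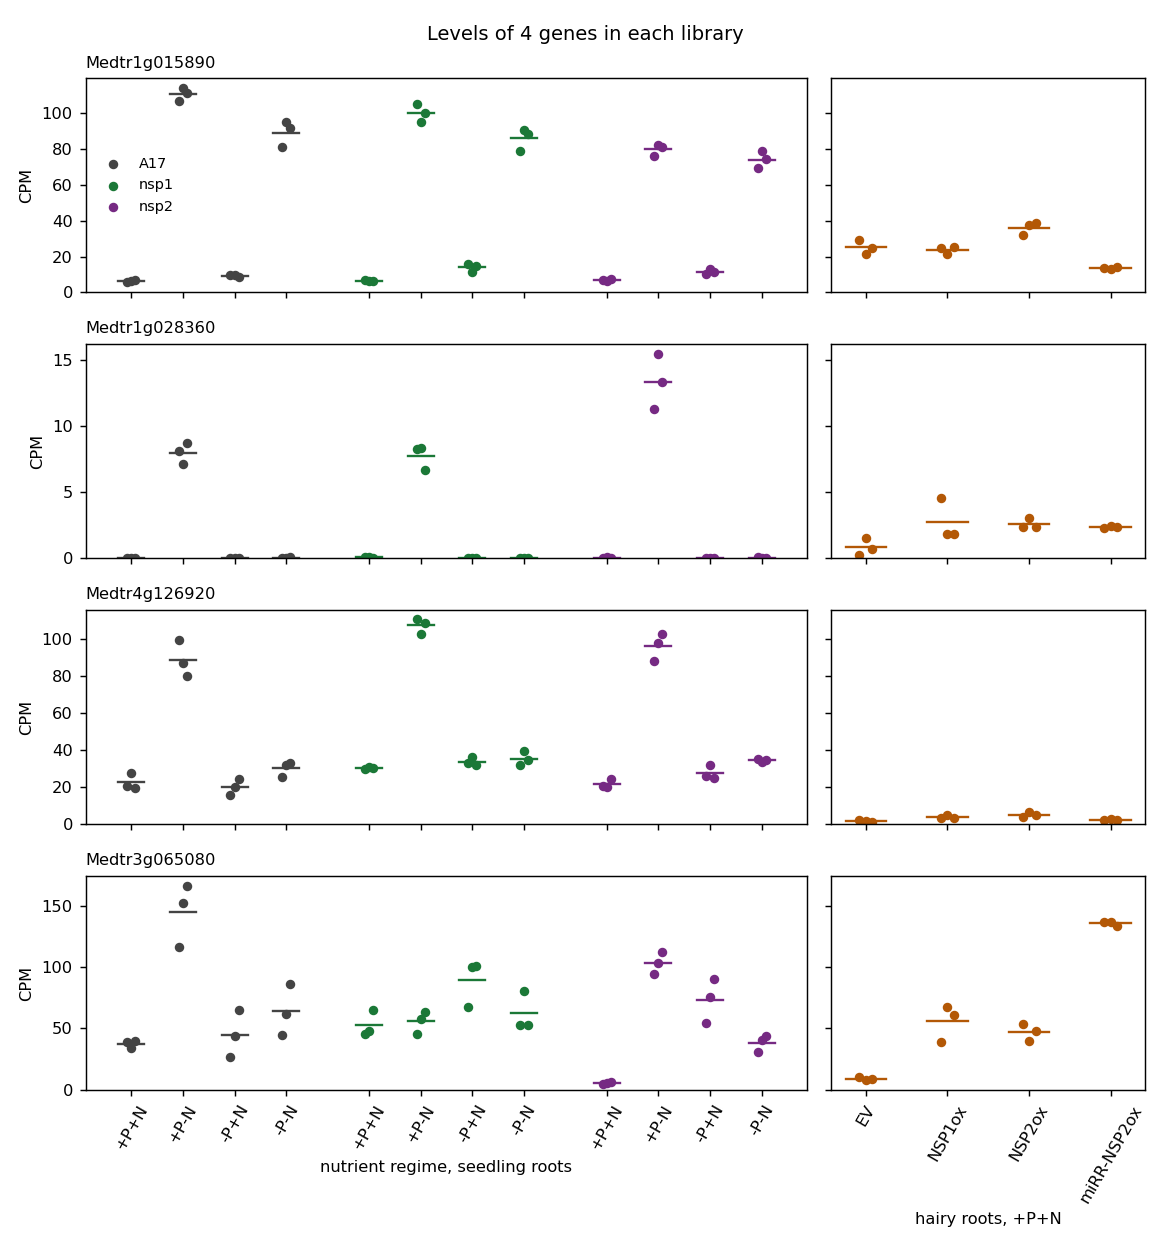
Levels in CPM of 4 members in each library, by genotype and regime in seedling roots (left) and by construct in hairy roots (right). Points are single libraries, bars are means of 3, and each axis starts at 0. Medtr1g015890 is high at +P-N and -P-N, Medtr1g028360 at +P-N alone, Medtr4g126920 mostly at +P-N, and Medtr3g065080 lies at 45.5 to 65.1 CPM in the nsp1 libraries of both +P+N and +P-N and at 4.63 to 6.88 CPM in nsp2 at +P+N.

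The mutants were not used to choose the genes, so the nitrate response within each mutant was tested. In nsp1 the 3 +P-N libraries had member medians of 7.91 to 8.17 CPM against 1.52 to 1.95 at +P+N. Of the 200 genes 183 were higher at +P-N and 1 was lower, and the median change was 2.28 on the log2 scale. Among all genes tested 28.7% were higher and 28.8% lower in the same comparison (edgeR quasi-likelihood test, Benjamini-Hochberg adjusted p under 0.05), and the median over all genes was 0.01. In nsp2 199 of the 200 were higher and 0 lower (0 also by the unadjusted p and by DESeq2), with a median of 2.89 against 0.01 over all genes, of which 28.1% were higher and 28.9% lower. Of the 183 genes higher in nsp1, 182 (99.5%) were also higher in nsp2, where they made up 91.5% of the genes called higher. The rise on nitrate removal was thus found in nearly every member in each mutant.

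A large and a small rise in the mutants are given by a pair of members. Medtr1g015890 went in nsp1 from 6.71, 6.19 and 6.13 CPM in replete roots to between 95.3 and 105 CPM in the 3 libraries without nitrate (log2 fold change 3.92 ± 0.07 SE, n = 3 libraries a group, edgeR adjusted p = 1.3e-15). In nsp2 it went from 7.05, 6.55 and 7.57 to 76, 82.4 and 81.2 CPM, a log2 fold change of 3.44 ± 0.08 (SE, edgeR adjusted p = 1.4e-11). The smallest fitted rise among the members in nsp2 was that of Medtr7g102560, which stood at 18.8, 18.7 and 18.6 CPM at +P+N and 48.2, 50.9 and 48.5 CPM at +P-N (log2 fold change 1.33 ± 0.06 SE, edgeR adjusted p = 5.2e-09). The groups did not overlap for either gene. Medtr7g102560 was at 13.9, 14 and 14 CPM in nsp1 at +P+N and at 50.6, 48.8 and 49 CPM at +P-N.

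The 1 member not called in nsp2 was Medtr6g016840, named here after its values were seen. It had no count at +P+N in the 3 nsp2 libraries and 2, 2 and 1 counts at +P-N, and its fitted change had an edgeR adjusted p of 0.072. In A17 it was at 0.416, 0.294 and 0.367 CPM at +P+N and 3.52, 3.42 and 2.2 CPM at +P-N, and in nsp1 at 3.13, 3.86 and 4.35 CPM at +P-N. All 12 nsp2 libraries held 2 counts or fewer, so this gene was hardly detected in nsp2 in any regime. A second member on the same chromosome, Medtr6g015310, was also low there, at 0.594, 0.549 and 0.785 CPM in nsp2 at +P-N against 3.97, 4.26 and 4.62 CPM in nsp1. By their identifiers, 19 of the 200 genes (9.5%) lie on chromosome 6, which holds 6.24% of the genes tested.

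In nsp1 17 of the 200 genes were not called higher without nitrate. Their median log2 fold change was 0.17, against 2.38 for the other 183, and 1 of them, Medtr3g070880, was lower. Without nsp1 +P-N replicate 3, 2 members were lower. These 17 were set apart by that result, so the values that follow describe them and test nothing. In nsp2 all 17 were called higher at +P-N, and their median change was 4.13 on the log2 scale against 2.83 for the other 183 genes. Several of the 17 had few counts in nsp2 at +P+N, such as Medtr2g043030 (0, 2 and 2) and Medtr2g043040 (2, 0 and 4). The size of their fitted changes in nsp2 is therefore uncertain. By their identifiers, 4 of the 17 (Medtr2g043020, Medtr2g043030, Medtr2g043040 and Medtr2g043050) follow each other on chromosome 2, and they are named here after their values were seen. No 2 neighbouring members had identical counts or counts correlated over 0.99, which shared reads could give.

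Medtr3g065080 was the most abundant of the 17. In A17 it was at 38.9, 33.9 and 39.8 CPM at +P+N and 116, 152 and 166 CPM at +P-N. In nsp1 it was at 45.5, 48.3 and 65.1 CPM at +P+N and 45.8, 57.9 and 63.8 CPM at +P-N, so these groups overlapped (log2 fold change 0.03 ± 0.12 SE, edgeR adjusted p = 0.87). In nsp2 it was at 4.63, 5.41 and 6.88 CPM at +P+N and 94.2, 103 and 112 CPM at +P-N (log2 fold change 4.13 ± 0.12 SE, edgeR adjusted p = 6.8e-11). The nsp2 mutant thus had a lower replete level than both A17 and nsp1, and a nitrate-starved level between theirs.

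Medtr3g070880 had the lowest fitted change in nsp1. It fell from 30.5, 30.6 and 34.4 CPM at +P+N to 28, 22.6 and 25 CPM at +P-N (log2 fold change -0.40 ± 0.08 SE, edgeR adjusted p = 5.1e-04), and this call was lost when all groups were fitted together (edgeR adjusted p = 0.33). In A17 the same gene went from 21.5, 18.7 and 23.7 to 68, 101 and 116 CPM. In nsp2 it went from 8.01, 13.1 and 13.7 to 50.8, 63 and 64.1 CPM (log2 fold change 2.29 ± 0.16 SE, edgeR adjusted p = 1.3e-07).

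Medtr2g043030, of the run of 4 neighbours, had a fitted change of -0.19 ± 0.21 in nsp1 (log2, SE, edgeR adjusted p = 0.45). It was at 3.41, 3.37 and 5.21 CPM in nsp1 at +P+N and 2.64, 4.1 and 4.03 CPM at +P-N. In nsp2 the +P+N libraries held 0, 2 and 2 counts, and the level at +P-N was 7.08, 8.38 and 10 CPM. In A17 it stood at 2.67, 1.47 and 2.73 CPM at +P+N and 8.14, 13.6 and 16 CPM at +P-N.

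**Figure D3:**
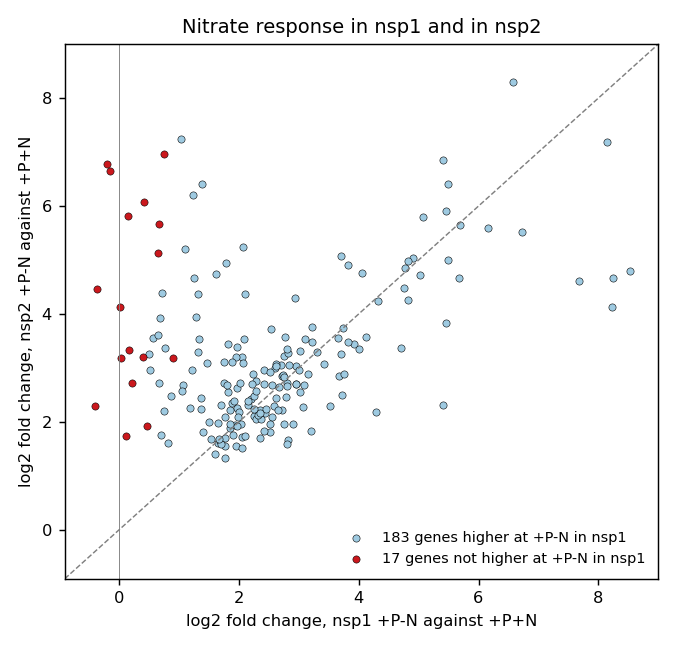
Fitted log2 fold change at +P-N against +P+N of the 200 genes in nsp1 (horizontal) and nsp2 (vertical). Red points are the 17 genes not called higher in nsp1, blue points the other 183, and the dashed line marks equal change. The red points have a median of 0.17 in nsp1 and 4.13 in nsp2. Several red points had few counts in nsp2 at +P+N, so the size of their change there is uncertain.

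The 17 genes shared an order of levels in replete roots. In 16 of them all 3 nsp2 libraries at +P+N were below all 3 nsp1 libraries, an order found in 81 of all 200 members and in 15.5% of the genes tested. The nsp1 libraries at +P+N also set the 17 apart, so a high nsp1 level there is partly built in. In A17 at +P-N replicate 1 was the lowest of its group in all 17, which was so in 90 of the 200 members (45%) and in 31% of the genes tested. The part of this order in the choice of these genes was not tested. In A17 at -P-N they had a median fitted log2 fold change of 0.83 over +P+N, against 2.08 for the other 183 genes.

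Whether the nitrate response differed between the mutants was tested by the interaction of genotype and nitrate supply at full phosphate, over 12 libraries. The response was larger in nsp2 than in nsp1 in 51 of the 200 genes and smaller in 4, against 2.56% and 0.609% of all genes tested. Of the 51, 15 were among the 17 genes above and 36 among the other 183. The 17 were set apart by nsp1 libraries that this interaction also uses, so a larger response in nsp2 is partly built in for them. Medtr3g065080 and Medtr3g070880, given next, are among the 17. For Medtr3g065080 the responses differed by 4.12 ± 0.21 on the log2 scale (SE, n = 12 libraries, edgeR adjusted p = 3.9e-09), with the larger response in nsp2. Its mean was 5.64 CPM in nsp2 and 52.9 CPM in nsp1 at +P+N, and 103 and 55.8 CPM at +P-N. The lower replete level in nsp2 thus entered this difference. For Medtr3g070880 they differed by 2.70 ± 0.19 (SE, n = 12 libraries, edgeR adjusted p = 1.3e-07). The 4 genes with a smaller response became 1 without nsp1 +P+N replicate 2 or 3, nsp2 +P-N replicate 1 or nsp2 +P+N replicate 3, and 2 without nsp1 +P-N replicate 3, nsp1 +P+N replicate 1 or nsp2 +P-N replicate 2.

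Compared directly at +P-N, 52 members were higher and 42 lower in nsp2 than in nsp1, against 6.95% and 6.84% of all genes tested, with a median log2 difference of 0.01. All 17 genes not called higher in nsp1 were among the 52, a count that shares the nsp1 +P-N libraries with the choice of the 17. Of the other 183 genes 35 were higher and 42 lower. Direct differences thus went both ways over the list, and those of the 17 went one way.

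The rule asked for little change without phosphate in A17, and the mutants were free to differ from this. In nsp1 75 of the 200 genes were higher at -P+N than in replete roots and 16 were lower, and the median change was 0.38 on the log2 scale, while 26.5% and 26.4% of all genes tested were called. In nsp2 72 were higher and 11 lower, with a median of 0.44, and 17.4% and 18.1% of all genes were called. The median over all genes was 0.02 in both. Of the genes called higher, 57 were shared, which is 76% of those in nsp1 and 79.2% of those in nsp2. The 11 lower in nsp2 became 5 without nsp2 -P+N replicate 1 or +P+N replicate 3 and 6 without nsp2 -P+N replicate 3 or +P+N replicate 1. Higher calls thus made up 37.5% of the members in nsp1 and 36% in nsp2, against 26.5% and 17.4% of all genes tested. The rule itself held the A17 change small, so these shares are no comparison of the mutants with A17.

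Of the 17 genes not called higher without nitrate in nsp1, 15 were higher at -P+N in nsp1 and 15 in nsp2. The nsp1 libraries at -P+N were all above those at +P-N in 14 of the 17, an order that 22 of the 200 members and 31.9% of all genes tested showed. The same nsp1 libraries at +P-N set the 17 apart, so this order is partly built in. Medtr3g070880 was at 49.3, 80.7 and 78.2 CPM in nsp1 at -P+N, above every nsp1 library of the other regimes (log2 fold change over +P+N 1.12 ± 0.15 SE, edgeR adjusted p = 2.6e-05). In nsp2 at -P+N it was at 39.3, 48.1 and 67.5 CPM (log2 fold change 2.17 ± 0.22 SE, edgeR adjusted p = 7.8e-05), and in A17 at 8.73, 16.5 and 29.9 CPM. The A17 libraries at -P+N overlapped those at +P+N and lay below both mutants. The rule had kept the A17 level at -P+N near its replete level, so this difference was not tested.

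Without phosphate, nitrate removal still raised most members. In nsp1 147 of the 200 were higher at -P-N than at -P+N and 19 were lower (median log2 fold change 1.70), against 22.6% and 23.8% of all genes tested. In nsp2 152 were higher and 15 lower (median 1.65), against 20.6% and 21.4%. Among these, 140 of the higher genes were shared (95.2% of nsp1 and 92.1% of nsp2) and 13 of the lower ones (68.4% and 86.7%). The 15 lower genes in nsp2 became 9 without nsp2 -P+N replicate 3. Of the 17 genes set apart in nsp1, 13 in nsp1 and 11 in nsp2 were lower at -P-N than at -P+N, so this small group made up most of the genes that went down.

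In many members the response was smaller without phosphate than with it. The interaction of phosphate and nitrate supply, fitted on the 12 libraries of each mutant, was negative in 87 of the 200 genes and positive in 2 in nsp1, with a median of -0.80, against 14.1% and 15.5% of all genes tested. In nsp2 it was negative in 83 and positive in 0 (1 by the unadjusted p, 0 by DESeq2), with a median of -1.01, against 5.32% and 4.79%. Of these genes 59 were shared, 67.8% of the nsp1 and 71.1% of the nsp2 genes. No interaction was called for 111 genes in nsp1 and 117 in nsp2. In A17 this interaction was not tested, since its +P-N and -P+N levels had chosen the genes. The mutant libraries did not enter the rule. It took genes with a large A17 rise at full phosphate, however, which can favour a smaller rise without phosphate in the mutants too.

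Medtr4g126920 had the smallest p in nsp1. It stood at 29.7, 30.9 and 30.2 CPM at +P+N, 111, 103 and 109 at +P-N, 33, 36.1 and 32 at -P+N and 32.2, 39.4 and 34.6 at -P-N (interaction -1.72 ± 0.10 SE on the log2 scale, n = 12 libraries, edgeR adjusted p = 6.1e-09). In roots that also lacked phosphate no rise was called, and the nitrate comparison gave 0.07 ± 0.09 (SE, edgeR adjusted p = 0.57). Medtr3g112530 behaved alike, at 70, 72.6 and 71.3 CPM in nsp1 at +P-N and 11.5, 19.4 and 15.9 CPM at -P-N (interaction -2.52 ± 0.19 SE, n = 12 libraries, edgeR adjusted p = 6.4e-08). In A17 it was at 66.5, 66.3 and 65.5 CPM at +P-N and 17.4, 23.2 and 22.6 CPM at -P-N.

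In nsp2 the smallest p of this interaction belonged to Medtr3g065080, at 54.5, 75.4 and 90.2 CPM at -P+N and 30.6, 40.8 and 43.7 CPM at -P-N (interaction -5.11 ± 0.26 SE, n = 12 libraries, edgeR adjusted p = 1.4e-08). Its rise on nitrate removal at full phosphate was replaced by a fall where phosphate was missing (log2 fold change -0.95 ± 0.17 SE, edgeR adjusted p = 0.0011). Medtr5g079340 kept a rise, from 17.9, 18.2 and 22.7 CPM at -P+N to 36.9, 37 and 36 CPM at -P-N, against 7.3, 8.11 and 7.57 CPM at +P+N and 65.8, 72.6 and 66.8 CPM at +P-N (interaction -2.23 ± 0.13 SE, n = 12 libraries, edgeR adjusted p = 4.6e-08). The groups of this gene at +P-N and -P-N did not overlap.

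Set directly against nitrate removal alone, removal of both nutrients gave lower levels in many members. In nsp1 86 of the 200 were lower at -P-N than at +P-N and 15 higher (median log2 fold change -0.31), against 14.9% and 13.5% of all genes tested. In nsp2 115 were lower and 14 higher (median -0.76), against 14.3% and 14.6%. The 64 genes lower in both were 74.4% of the nsp1 genes and 55.7% of the nsp2 genes. The higher genes became 8 in nsp1 without -P-N replicate 3, and in nsp2 9 without -P-N replicate 3 and 7 without +P-N replicate 1.

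**Figure D4:**
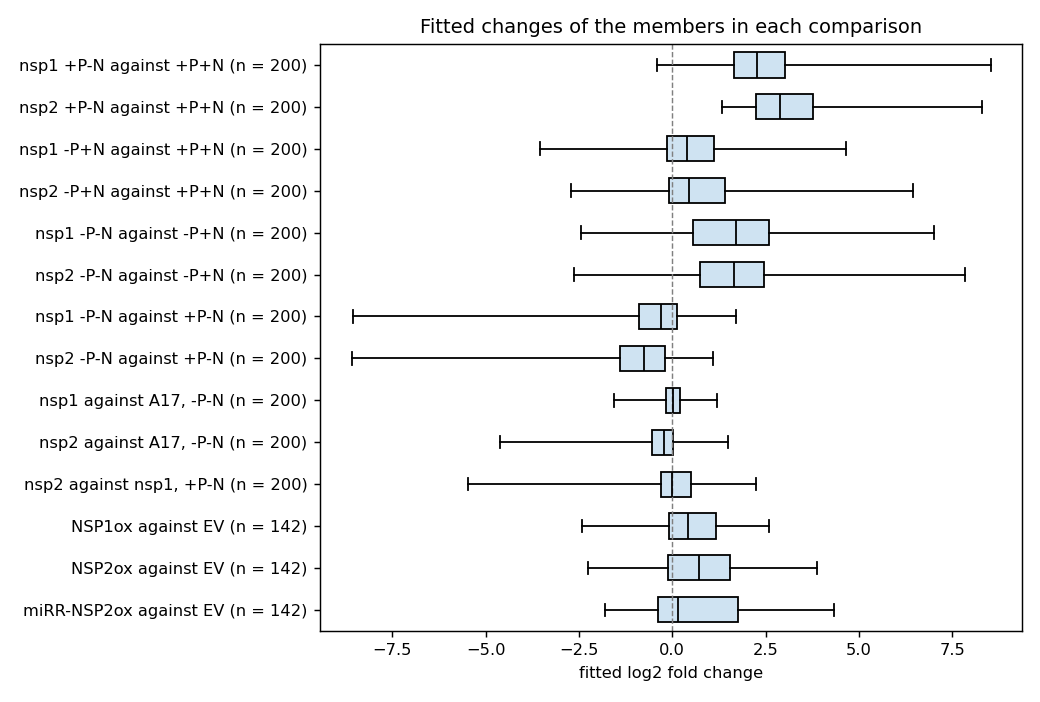
Fitted log2 fold changes of the members in the 14 comparisons tested, with the number of members in brackets, which in hairy roots are the 142 that reached 0.494 CPM, the minimum of the filter, in every EV library. Boxes span the interquartile range with the median as a line, whiskers reach the lowest and highest value, and the dashed line marks no change. The medians are 2.28 and 2.89 at +P-N against +P+N in nsp1 and nsp2, 0.38 and 0.44 at -P+N, and 0.01 and -0.23 for the mutants against A17 at -P-N.

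Against A17 the mutants were tested at -P-N, a regime whose A17 level entered only the filter of the rule. In nsp1 9 of the 200 genes were higher and 2 lower, with a median log2 difference of 0.01, against 1.69% and 0.702% of all genes tested. Medtr5g026620 was at 43, 38.1 and 35 CPM in nsp1 and 21.6, 22.1 and 26 CPM in A17 (log2 difference 0.73 ± 0.09 SE, edgeR adjusted p = 9.5e-04). Medtr2g438310 was at 6.29, 8.6 and 8.82 CPM in nsp1 and 3.96, 3.38 and 3.48 CPM in A17 (1.13 ± 0.16 SE, edgeR adjusted p = 0.0022). Neither gene's groups overlapped.

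Of the lower genes, Medtr7g020980 was at 13.4, 16 and 15.6 CPM in nsp1 and 25.1, 23.8 and 24 CPM in A17 (-0.70 ± 0.08 SE, edgeR adjusted p = 5.8e-04). Medtr8g031850 was at 1.92, 3.06 and 2.34 CPM in nsp1 and 4.53, 5.21 and 7.26 CPM in A17 (-1.20 ± 0.22 SE, edgeR adjusted p = 0.013). Without nsp1 -P-N replicate 3 the counts became 4 higher and 1 lower, and the adjusted p of Medtr8g031850 was 0.087. In the main fit 4.5% of the members were thus called higher and 1% lower, in a comparison with few calls over all genes as well.

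In nsp2 at -P-N 24 of the 200 genes were lower than in A17 and 6 higher, with a median log2 difference of -0.23, against 2.98% and 2.59% of all genes tested. Medtr3g112120 was at 6.95, 6.63 and 6.98 CPM in nsp2 and 17.6, 20 and 18 CPM in A17 (-1.44 ± 0.09 SE, edgeR adjusted p = 3.2e-06). Medtr6g015310 was at 1.08, 0.966 and 0.598 CPM in nsp2 and 3.62, 3.81 and 5.13 CPM in A17 (-2.25 ± 0.25 SE, edgeR adjusted p = 2.4e-04). Both sets of libraries were apart. Among the higher genes Medtr6g027840 was at 8.59, 10.7 and 5.86 CPM in nsp2 and 2.64, 3.61 and 4.48 CPM in A17 (1.23 ± 0.23 SE, edgeR adjusted p = 0.0093).

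The count of lower genes depended on single libraries. The 24 became 11 without A17 -P-N replicate 2 or replicate 3 and 14 without nsp2 -P-N replicate 3, and the 6 higher genes became 1 without A17 -P-N replicate 1 or 2 and 2 without nsp2 -P-N replicate 2 or 3. Of the 19 members on chromosome 6, 4 (21.1%) were lower in nsp2, and of the other 181 members 20 (11%) were. By their identifiers, Medtr6g027840 and Medtr6g012420, both among the higher genes, lie on chromosome 6 as well. For Medtr6g012420 the log2 difference was 1.32 ± 0.32 (SE, edgeR adjusted p = 0.034), and its call was lost in 5 of the fits with a library left out. The share of all chromosome 6 genes called in nsp2 was not computed, so no shift of this chromosome is read from these counts.

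At +P-N the mutants and A17 are set side by side without a test, since the A17 level there was chosen to be high. Medtr5g026620 was at 34.2, 43.6 and 33.5 CPM in A17, 58, 62.4 and 70.3 CPM in nsp1 and 48.3, 43.6 and 46.4 CPM in nsp2. The nsp1 libraries were above the other 6. Medtr3g112120 was at 26.1, 14.6 and 16.6 CPM in A17, 28, 28.5 and 20.7 CPM in nsp1 and 10.5, 14.9 and 16.7 CPM in nsp2, with overlap between A17 and each mutant. Over the list, the libraries at +P-N had medians of 8.32 to 10.5 CPM in A17, 7.91 to 8.17 in nsp1 and 7.97 to 9.02 in nsp2.

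Hairy roots carrying an NSP1 or NSP2 construct were compared with EV while nitrate was present. Whether NSP1 or NSP2 was in excess in them could not be checked. The 3 comparisons share the EV libraries, so each is given on its own values. The median over the 200 genes was 2.31 to 2.47 CPM in the EV libraries, 4.25 to 4.82 in NSP1ox, 5.07 to 5.7 in NSP2ox and 5.83 to 6.45 in miRR-NSP2ox, and no 2 groups overlapped. In NSP1ox 75 members were higher and 14 lower than in EV, against 6.59% and 5.16% of all genes tested. In NSP2ox 111 were higher and 23 lower, against 14.2% and 11.5%. In miRR-NSP2ox 85 were higher and 34 lower, against 15.9% and 14.7%.

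A gene low in EV could enter these tests only through a construct in which it was higher, so the members that reached the minimum of 0.494 CPM in all 3 EV libraries were also counted. There were 142 of them. In NSP1ox 55 (38.7%) were higher and 14 (9.86%) lower, while 6.26% and 5.7% of the 21664 genes that met the same condition were. In NSP2ox 81 (57%) were higher and 23 (16.2%) lower, against 12.9% and 12.7%. In miRR-NSP2ox 60 (42.3%) were higher and 34 (23.9%) lower, against 15.5% and 16.2%. Higher calls were thus the more frequent in each construct, also among members expressed in EV.

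Medtr3g065080 was higher than in EV with all 3 constructs. It was at 10.5, 8.45 and 8.95 CPM in EV, 38.9, 67.8 and 60.8 in NSP1ox, 53.9, 39.9 and 48.2 in NSP2ox and 137, 137 and 133 in miRR-NSP2ox. The log2 fold changes over EV were 2.58 ± 0.19, 2.35 ± 0.12 and 3.86 ± 0.09 (SE, edgeR adjusted p = 3.0e-05, 1.2e-07 and 9.8e-11). The miRR-NSP2ox libraries were above all others, and those of NSP1ox and NSP2ox overlapped. Medtr8g099350 was also highest in miRR-NSP2ox, with 4.96, 6.24 and 5.76 CPM in EV and 92.5, 92.5 and 91.8 CPM in miRR-NSP2ox (log2 fold change 4.02 ± 0.09 SE, edgeR adjusted p = 9.8e-11).

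Medtr1g054205 followed another order. It was at 1.82, 2.06 and 1.33 CPM in EV, 10.3, 8.5 and 8.13 in NSP1ox, 22.8, 26.9 and 26.8 in NSP2ox and 5.64, 4.63 and 5.16 in miRR-NSP2ox. The log2 fold changes over EV were 2.36 ± 0.20, 3.88 ± 0.16 and 1.56 ± 0.22 (SE, edgeR adjusted p = 6.7e-05, 2.2e-08 and 2.6e-04). Its highest group was NSP2ox with the native transcript, and no 2 of the 4 groups overlapped.

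Some members were lower than in EV with each construct. Medtr7g012070 was at 69.9, 62.5 and 69.2 CPM in EV. It was at 24.1, 39.7 and 37 CPM in NSP1ox, 29.2, 28.6 and 25.5 in NSP2ox and 33.9, 42.7 and 34.2 in miRR-NSP2ox. It was called lower in NSP1ox (edgeR adjusted p = 0.0017), and the log2 fold changes were -1.27 ± 0.08 in NSP2ox and -0.87 ± 0.09 in miRR-NSP2ox (SE, edgeR adjusted p = 5.3e-07 and 3.3e-05). In A17 seedling roots this gene did not exceed 6.04 CPM in any library, so its level in hairy roots was of another order.

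Medtr2g438720 was at 30.8, 28.6 and 28.1 CPM in EV and 11.7, 16 and 12 CPM in miRR-NSP2ox (log2 fold change -1.14 ± 0.12 SE, edgeR adjusted p = 2.1e-05). In NSP1ox it was at 17.8, 15.6 and 16.8 CPM (-0.80 ± 0.09 SE, edgeR adjusted p = 3.1e-04). Neither construct's libraries overlapped those of EV. Medtr1g015890, whose rise on nitrate removal was among the strongest, was at 29.3, 21.7 and 25 CPM in EV. It was at 31.9, 37.7 and 39 CPM in NSP2ox and 13.7, 13 and 14.3 CPM in miRR-NSP2ox. Both NSP2 constructs thus differed from EV, in opposite directions (log2 fold change 0.52 ± 0.11 and -0.89 ± 0.11 SE, edgeR adjusted p = 0.0048 and 1.3e-04). The 14 lower genes of NSP1ox became 5 without EV replicate 3, and 9 without EV replicate 1 or NSP1ox replicate 3.

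Of the 17 genes not called higher without nitrate in nsp1, 7 reached the minimum in every EV library, and the other 10 entered the hairy root test with the help of construct libraries in which they were higher. Of the 7, 6 were higher in NSP1ox, 6 in NSP2ox and 7 in miRR-NSP2ox, and 0 were lower in any of these. Among the other 135 members expressed in EV, 49 were higher and 14 lower in NSP1ox, 75 higher and 23 lower in NSP2ox, and 53 higher and 34 lower in miRR-NSP2ox. The median log2 fold changes of the 7 were 1.45, 1.61 and 2.81 in NSP1ox, NSP2ox and miRR-NSP2ox, against 0.38, 0.64 and 0.10 for the 135. In 16 of the 17 all miRR-NSP2ox libraries were above all 9 other hairy root libraries. This order was shown by 60 of the 200 members, the 18 not tested included, and by 8.27% of all genes tested. It also counts the 10 that entered with the help of construct libraries, so it describes the 17 and tests nothing.

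**Figure D5:**
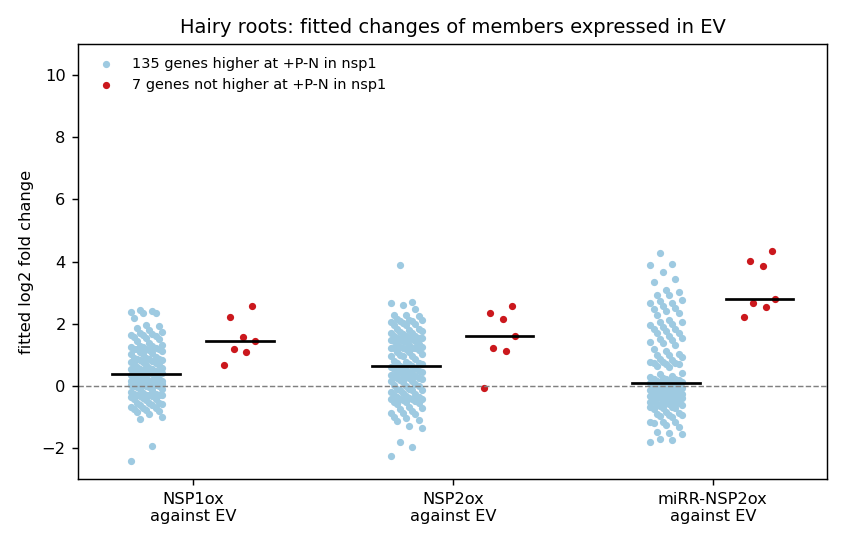
Fitted log2 fold changes over EV in hairy roots of the 142 members that reached the minimum in every EV library. Red points are the 7 of these genes not called higher at +P-N in nsp1, blue points the other 135, and black bars are medians. The red medians are 1.45, 1.61 and 2.81 in NSP1ox, NSP2ox and miRR-NSP2ox, and the blue ones 0.38, 0.64 and 0.10.

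By position, 45 of the 200 genes had another member within 5 places in the order of the deposited counts, in 21 runs of which the longest held 4 genes. The share for a list of this size drawn from all genes tested was not computed, so no clustering is read from this count. The members lay on all chromosomes, from 17 on chromosome 5 (8.5% of the members, 11.2% of the genes tested) to 33 on chromosome 3 (16.5% against 14.1%), with 8 on unplaced scaffolds.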

How the data were processed

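The authors checked reads with FastQC, mapped them with STAR to the M. truncatula genome (Mt4.0v1) and counted them per gene with featureCounts, and they deposited whole-number counts without normalization. Tool versions, the use of strand and the treatment of reads that map to several genes are not given in the sources used here, so members with near-identical copies are uncertain. RNA was poly-A enriched. The barley table was not used here.

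A gene was tested where its CPM in no fewer than 3 libraries matched or exceeded that of 10 counts in the median library (0.492 in seedling and 0.494 in hairy roots). The 2 groups of a comparison (3 libraries each), or the 12 libraries of an interaction, were TMM-normalized and fitted alone with the quasi-likelihood test of edgeR. Benjamini-Hochberg adjustment ran over every gene tested, and calls needed an adjusted p under 0.05. The standard error is the fitted log2 fold change divided by the square root of F. An exact permutation test of 3 against 3 libraries was not used, since it cannot go below 0.1. Where a group held 3 counts or fewer, no fold is given in the text, and medians over the list with such genes set at 3 counts differed at most for nsp2 at -P+N (0.40 in place of 0.44). The tests were tried on simulated data.

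The 200 genes, the comparisons and the alternatives were chosen with earlier results of these data known. Gene lists by function, sequences and motifs were planned, but 0 of the 50894 identifiers occur in the RefSeq gene table at hand (assembly MtrunA17r5.0-ANR). The genes named are those with the largest L, the lowest fitted change in each mutant at +P-N, the smallest p in each direction against A17 at -P-N and in hairy roots, and the smallest p in each interaction. Of these, at most 2 a direction and comparison are described in the report and 3 an interaction in the closing section, beside those said to be chosen after their values were seen. Alternatives were no filter, a filter in at least 1 library, RLE size factors, DESeq2, one fit over all groups, calls limited to a fold change over 1.5, the replicate number as a block, and each library left out in turn. The hairy root counts and medians over genes expressed in EV were added after seeing the data. The versions used were edgeR 4.0.16, DESeq2 1.42.0 and limma 3.58.1 under R 4.3.3.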

Additional observations from a re-analysis of the deposited data

Results flagged for a closer look

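The difference between the mutants in their response to nitrate removal at full phosphate was picked out because the difference itself was tested. It was larger in nsp2 than in nsp1 for 51 of the 200 genes and smaller for 4 (2.56% and 0.609% of all genes tested). The genes with the smallest p were Medtr3g065080 (4.12 on the log2 scale), Medtr3g070880 (2.70) and Medtr2g043030 (6.98, with 0, 2 and 2 counts in nsp2 at +P+N).

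The difference between the nitrate responses without and with phosphate was tested in the same way in each mutant. In nsp1 it was negative for 87 genes and positive for 2, with the smallest p for Medtr4g126920 (-1.72), Medtr3g112530 (-2.52) and Medtr3g074890 (-2.44). In nsp2 it was negative for 83 and positive for 0, with the smallest p for Medtr3g065080 (-5.11), Medtr5g079340 (-2.23) and Medtr2g043040 (-8.41, with 2, 0 and 4 counts at +P+N). Groups of 3 libraries are too small for a test of single outlying libraries.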

How the results depend on the processing

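Of the 200 genes, 156 were also chosen with a pseudocount of 1, 192 with RLE factors and 195 with TMM factors from the genes tested. In nsp1 against A17 at -P-N the 9 higher genes became 15 with no filter, 14 with the replicate block and 4 to 13 with a library left out, and the 2 lower genes became 5 with no filter, 4 with DESeq2 and 4 with the block. In nsp2 the 24 lower genes became 41 with no filter and 11 to 35 with a library left out, and the 6 higher became 2 with the block. The 14 genes lower in NSP1ox became 9 with a fold change over 1.5, 9 with the block and 5 to 14 with a library left out, and the 23 lower in NSP2ox became 15 with a fold change over 1.5. Of the smaller counts, the genes that removal of both nutrients raised over +P-N, 15 in nsp1 and 14 in nsp2, became 4 and 6 with a fold change over 1.5, the 11 lower at -P+N in nsp2 became 17 in one fit of all groups, and the 1 lower at +P-N in nsp1 became 0 under both and 2 with a library left out. The 4 genes with a smaller nitrate response in nsp2 than in nsp1 became 2 with a fold change over 1.5, 7 with no filter, 0 in one fit and 1 to 6 with a library left out, and the 2 with a positive interaction in nsp1 became 0 with a fold change over 1.5. The cause of these shifts was not tested. The fitted change of Medtr2g043030 in nsp1 turned from -0.19 to 0.04 (edgeR adjusted p = 0.9) without nsp1 +P+N replicate 3, within a range of -0.31 to 0.04 over the libraries left out. The genes not higher at +P-N in nsp1, 17 in the fit reported, numbered 24 in one fit of all groups, 19 with DESeq2 (all 17 included in both) and 16 to 20 with a library left out. Replicate numbers were not treated as pairs. In 0 of 14 comparisons did all 3 same-numbered pairs deviate together by over 0.1 (correlations -0.137 to 0.23), a cutoff that cannot exclude a weaker pairing. The block moved no other count of members by over 1.5 times. At these depths, members under 1 CPM in both groups are near the limit of detection.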
